A study of Mus musculus with 14 samples.

Results

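The kinases that phosphorylate the SR splicing proteins were followed in microglia, the resident macrophages of the brain, after antibody blockade of CD22, an inhibitory receptor that binds sialic acid. The set was chosen by gene symbol and holds 8 genes, Clk1, Clk2, Clk3, Clk4, Srpk1, Srpk2, Dyrk1a and Prpf4b, of 24394 named genes in the deposited table. The choice came from Clk3, which ranked 24 by p among 11646 genes tested for anti-CD22 against IgG and was lower with anti-CD22. Every difference of these 8 genes between the treatment groups is therefore a description of these libraries, with no test of its own.

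All mice were C57BL/6 and 18 months old, and all carried an osmotic pump that infused antibody into the cerebrospinal fluid for 1 month. One group of 7 libraries came from mice given a control IgG and the other 7 from mice given the CD22 blocking antibody. Both groups thus share age, surgery and infusion, and neither shows untreated or young microglia. For each library about 20000 viable cells, positive for CD11b and low for CD45, were sorted from the hemibrain opposite the cannula. It is not stated that libraries are separate animals, so p-values measure the spread between these libraries, which may be partly technical. In such bulk RNA, fewer cells of a type and less RNA per cell cannot be told apart.

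SR proteins carry a tail rich in arginine and serine, and they recruit the splicing machinery to exons. Srpk kinases phosphorylate this tail mainly in the cytoplasm, which lets the import receptor Tnpo3 carry SR proteins into the nucleus, and Clk kinases add further phosphates in the nucleus, which releases SR proteins from nuclear speckles. Dyrk1a and Prpf4b are related kinases that act on splicing factors in speckles and on the tri-snRNP, the particle that joins the spliceosome before catalysis. Transcripts of Clk1 and Clk4 are known for introns that are kept in the nucleus and spliced out on demand, so a count per gene does not show how much productive message is made.

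The labelled cell type was checked against marker genes. All 10 microglia markers were detected, with summed levels from 1822320 to 2172920 normalized counts in IgG libraries and from 1920630.3 to 2079269 in anti-CD22 libraries. Summed levels of the 4 neutrophil markers found ran from 3.34 to 16996 with IgG and from 0 to 3486 with anti-CD22, and those of the 5 monocyte markers from 137 to 9181 and from 88.2 to 2313. The 5 oligodendrocyte markers summed to 4494 to 5569 and 4114 to 4846, the 6 astrocyte markers to 5904 to 8601 and 6612 to 8442, and the 6 border macrophage markers to 90.7 to 1512 and 243 to 2308. The 5 endothelial markers (634 to 1216 and 884 to 1235), the 6 neuron markers (0 to 102 and 21.3 to 112) and 7 lymphocyte markers (0 to 21.8 and 4.44 to 55.8) were low, with the endothelial markers Cldn5 and Slco1a4 and the lymphocyte markers Cd3e and Ms4a1 at 0 in every library. Their part in the differences below was not tested. The deposited values, counts divided by a size factor for each library and called normalized counts here, had totals from 27357939 to 29197481. Totals of whole reads, recovered for 13 libraries, ran from 20221836 to 38101421.

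All 8 kinases were measured well enough to be tested, and their levels per length spanned a wide range. Per kilobase of the longest annotated transcript, Clk3 was highest at 469 ± 73.3 normalized counts per kilobase (SD, n = 14), followed by Clk1 at 317 ± 57.4 (SD, n = 14), Clk4 at 176 ± 32.9 (SD, n = 14) and Dyrk1a at 150 ± 31.8 (SD, n = 14). Prpf4b stood at 94.1 ± 12.01 normalized counts per kilobase (SD, n = 14), Srpk1 at 64.2 ± 10.3 (SD, n = 14), Srpk2 at 51.0 ± 8.58 (SD, n = 14) and Clk2 at 14.1 ± 5.15 (SD, n = 14). Nuclear Clk kinases thus stood at both the top and the bottom of this order, with both Srpk kinases in its lower part.

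Neighbours in this order were compared within each library by a two-sided exact sign-flip permutation test, adjusted over 7 neighbour pairs. The order was taken from the means of the same libraries, and each length was held fixed. The p-values thus carry no uncertainty about length. All 7 pairs passed a threshold of 0.05. The widest step was between Srpk2 and Clk2, with a mean log2 difference of 1.92 ± 0.58 (SD, n = 14, exact adjusted p = 0.000285), and Srpk2 was the higher in 14 of 14 libraries. Clk1 exceeded Clk4 by 0.85 ± 0.25 on the log2 scale (SD, n = 14, exact adjusted p = 0.000285), again in 14 of 14 libraries. The narrowest step was between Clk4 and Dyrk1a, at 0.24 ± 0.38 (SD, n = 14, exact adjusted p = 0.0387), with Clk4 higher in 10 of 14 libraries. That call was lost, with adjusted p from 0.0581 to 0.0754 by the same exact test, on leaving out IgG replicate 2, 3, 4, 5 or 7 or anti-CD22 replicate 1, 5 or 7. With the length of all exons joined, Clk4 against Dyrk1a (exact adjusted p = 0.616) and Srpk1 against Srpk2 (exact adjusted p = 0.347) did not differ beyond their spread. By the longest protein-coding transcript, Clk4 exceeded Dyrk1a by 1.105 ± 0.378 on the log2 scale (SD, n = 14, exact adjusted p = 0.000214). Clk4 was then the higher in 14 of 14 libraries, so the size of this step depended on the length used.

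The order at the top depended on which length was used. The longest annotated transcript is a model with a retained intron for Clk1, Clk2, Clk3, Clk4 and Srpk1. For Clk1 it has 4865 bases, against 1796 bases for the longest protein-coding transcript, and for Clk3 it has 4130 against 2496 bases. Per kilobase of the coding transcript, Clk1 came first at 858 ± 155 normalized counts per kilobase (SD, n = 14) and Clk3 next at 776 ± 121 (SD, n = 14). Over all 14 libraries these neighbours then differed by 0.14 ± 0.38 on the log2 scale (SD, n = 14, exact adjusted p = 0.195). That test pools groups whose means were ordered in opposite ways, so it does not show that the levels were alike. In IgG libraries Clk3 averaged 869 ± 87.5 and Clk1 788 ± 131 (SD, n = 7 each). In anti-CD22 libraries Clk3 averaged 683 ± 63.7 and Clk1 928 ± 154 (SD, n = 7 each). Of the 13 annotated Clk1 transcripts 7 are retained-intron models, as are 7 of 14 for Clk4, and reads over such introns cannot be separated from exon reads in a count per gene.

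**Figure D1:**
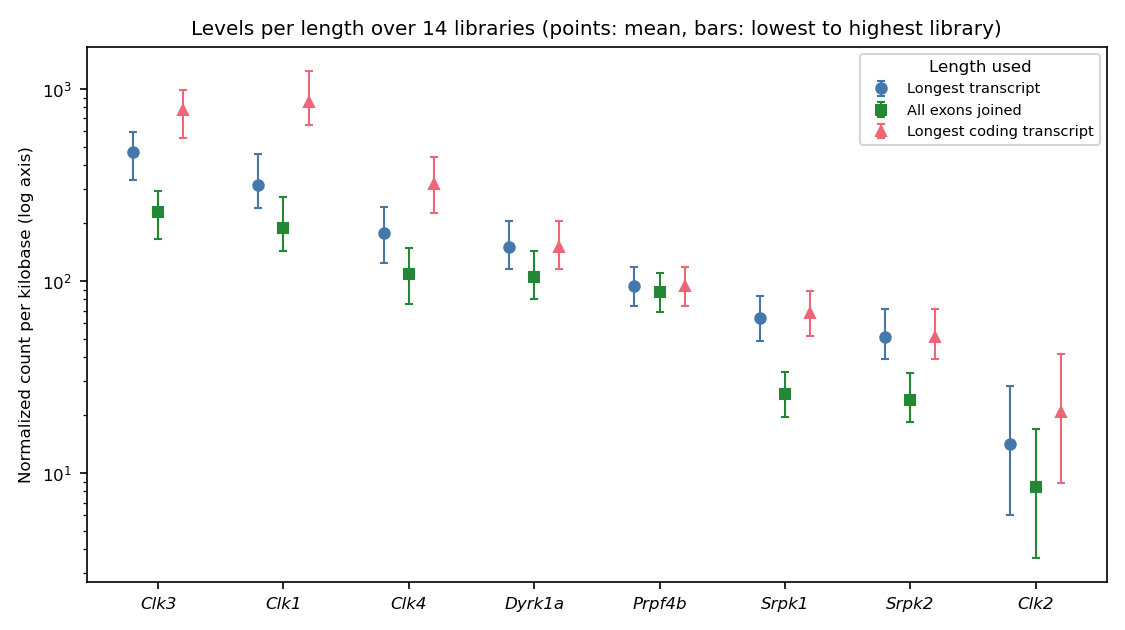
Normalized counts per kilobase on a log axis for each kinase, with the mean over 14 libraries as a point and the lowest and highest library as the ends of the bar, for 3 choices of transcript length. Clk3 and Clk1 lead under each choice, and Clk2 is lowest under each, at 14.1 per kilobase of the longest transcript.

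Clk3, a nuclear kinase of the Clk family, lies on chromosome 9 from 57750624 to 57765860 (GRCm38, minus strand). Its IgG libraries ran from 1885 to 2466 normalized counts with a median of 2162, and its anti-CD22 libraries from 1388 to 1861 with a median of 1726. All 7 anti-CD22 libraries lay below the lowest IgG library, so the groups did not overlap, although the gap between them was narrow. Such separation toward lower values was found for 0.12% of genes tested, and Clk3 was chosen for this difference. The means were 2169 ± 218 normalized counts in IgG (SD, n = 7) and 1705 ± 159 in anti-CD22 libraries (SD, n = 7), a 1.27-fold lower level (log2 difference -0.35, SE 0.080, 95% interval -0.51 to -0.18). Within groups Clk3 varied little, with an SD of 0.14 on the log2 scale, lower than that of most genes tested (percentile 17.2). Clk3 was chosen for a small p, which favours a small SD, so nothing is read from this.

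Clk3 overlaps a neighbouring gene. Of its annotated exon bases 15.2% (1284 bases) are shared with exons of Edc3, an mRNA decapping factor on the opposite strand. Whether counting used strand is not given in the sources used here, so reads of the pair cannot be told apart there. Within the set, Srpk2 also shares 6.99% of its exon bases with Kmt2e on the opposite strand.

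Clk1, a nuclear SR kinase, lies on chromosome 1 from 58410189 to 58424066 (minus strand). It ran from 1161 to 1808 normalized counts with a median of 1322 in IgG libraries, and from 1377 to 2213 with a median of 1610.0 in anti-CD22 libraries. All 7 anti-CD22 libraries exceeded the IgG median, but only anti-CD22 replicate 1 exceeded the highest IgG library. The means were 1414 ± 235 (SD, n = 7) and 1666 ± 276 (SD, n = 7), a log2 difference of 0.24 (SE 0.11, 95% interval 0.0033 to 0.47).

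Clk4, a close relative of Clk1, lies on chromosome 11 from 51261730 to 51281766 (plus strand). It ran from 444 to 744 normalized counts with a median of 579.6 in IgG libraries and from 441 to 857 with a median of 676 in anti-CD22 libraries. The anti-CD22 libraries spanned the whole IgG range, with 2 above it and 1 below it. The means were 586 ± 90.2 (SD, n = 7) and 665 ± 133 (SD, n = 7), a log2 difference of 0.17 (SE 0.14, 95% interval -0.11 to 0.46). The count of Clk4 relative to Clk1 was nearly the same in both groups, at a ratio of 0.418 ± 0.057 in IgG (SD, n = 7) and 0.403 ± 0.076 in anti-CD22 libraries (SD, n = 7).

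Clk3 and Clk1 lay in opposite directions from IgG. The ratio of their counts was 1.56 ± 0.24 in IgG libraries (SD, n = 7), from 1.15 to 1.87, and 1.04 ± 0.18 in anti-CD22 libraries (SD, n = 7), from 0.795 to 1.27. The ranges overlapped between 1.15 and 1.27. A count ratio across genes also holds their length, so at most its change between libraries can be read. As Clk3 was chosen for being lower in these libraries, a lower ratio follows in part from that choice. The trend over length and GC content described below was not removed from these ratios.

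Clk2, the remaining member of the family, lies on chromosome 3 from 89164795 to 89176921 (plus strand) and was listed at the lowest counts of the set. It ran from 32.8 to 89.7 normalized counts with a median of 42.4 in IgG libraries and from 19.1 to 57.7 with a median of 45.5 in anti-CD22 libraries. The groups overlapped widely, and their medians and means were ordered in opposite ways. The means were 49.3 ± 18.8 (SD, n = 7) and 39.8 ± 13.1 (SD, n = 7), a log2 difference of -0.31 with a wide 95% interval of -0.97 to 0.35 (SE 0.32). Without IgG replicate 7, the highest library, it was -0.16, and without anti-CD22 replicate 6, the lowest, it was -0.15. Its SD within groups of 0.49 on the log2 scale was the highest of the set (percentile 78.2 of genes tested).

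The listed level of Clk2 may leave out reads. The table also has a joint entry for a transcript that runs from Clk2 into the next gene, Scamp3, and this entry was at 0 in all 14 libraries. Scamp3, a membrane trafficking gene, was itself listed at only 0.928 to 17.9 normalized counts. Of 9 such joint entries with both partner genes in the table, 8 were at 0 in every library. The first gene of these 8 averaged from 0.225 to 534 normalized counts, and the second gene only from 0 to 20.2. A joint entry at 0 thus went with first genes at low and at high levels, but with second genes at low levels. Whether reads were lost at these entries was not tested. How reads that fit more than 1 entry were counted is not given in the sources used here, so the low place of Clk2 in the order of levels is uncertain.

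Srpk1, a cytoplasmic SR kinase, lies on chromosome 17 from 28587648 to 28622709 (minus strand). It ran from 241 to 354 normalized counts with a median of 274 in IgG libraries and from 299 to 414 with a median of 328 in anti-CD22 libraries. All 7 anti-CD22 libraries exceeded the IgG median and 3 exceeded the highest IgG library. The means were 285 ± 35.4 (SD, n = 7) and 351 ± 42.8 (SD, n = 7), a 1.23-fold higher level (log2 difference 0.30, SE 0.12, 95% interval 0.04 to 0.56).

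Srpk2, its relative, lies on chromosome 5 from 23503264 to 23684617 (minus strand). It ran from 282 to 380 normalized counts with a median of 315 in IgG libraries, and from 254 to 462 with a median of 332 in anti-CD22 libraries. The anti-CD22 libraries reached beyond the IgG range at both ends, with 2 above it and 2 below it. The means were 327 ± 38.2 (SD, n = 7) and 335 ± 72.3 (SD, n = 7), a log2 difference of 0.01 (SE 0.14, 95% interval -0.28 to 0.31).

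Dyrk1a, a kinase of SR proteins and of many other substrates, lies on chromosome 16 from 94570010 to 94695517 (plus strand). It ran from 660.5 to 952 normalized counts with a median of 711 in IgG libraries and from 668 to 1186 with a median of 1028 in anti-CD22 libraries. Of the anti-CD22 libraries 5 exceeded the highest IgG library, while replicates 5 and 7 lay inside the IgG range at 735 and 668. The means were 759 ± 106 (SD, n = 7) and 966 ± 190 (SD, n = 7), a 1.26-fold higher level (log2 difference 0.33, SE 0.13, 95% interval 0.06 to 0.60).

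Prpf4b, which phosphorylates tri-snRNP proteins, lies on chromosome 13 from 34875302 to 34906064 (plus strand). It ran from 606 to 931 normalized counts with a median of 732 in IgG libraries and from 579 to 836 with a median of 733 in anti-CD22 libraries. The groups lay on top of each other. The means were 743 ± 108 (SD, n = 7) and 733 ± 86.3 (SD, n = 7), a log2 difference of -0.02 (SE 0.11, 95% interval -0.24 to 0.21).

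**Figure D2:**
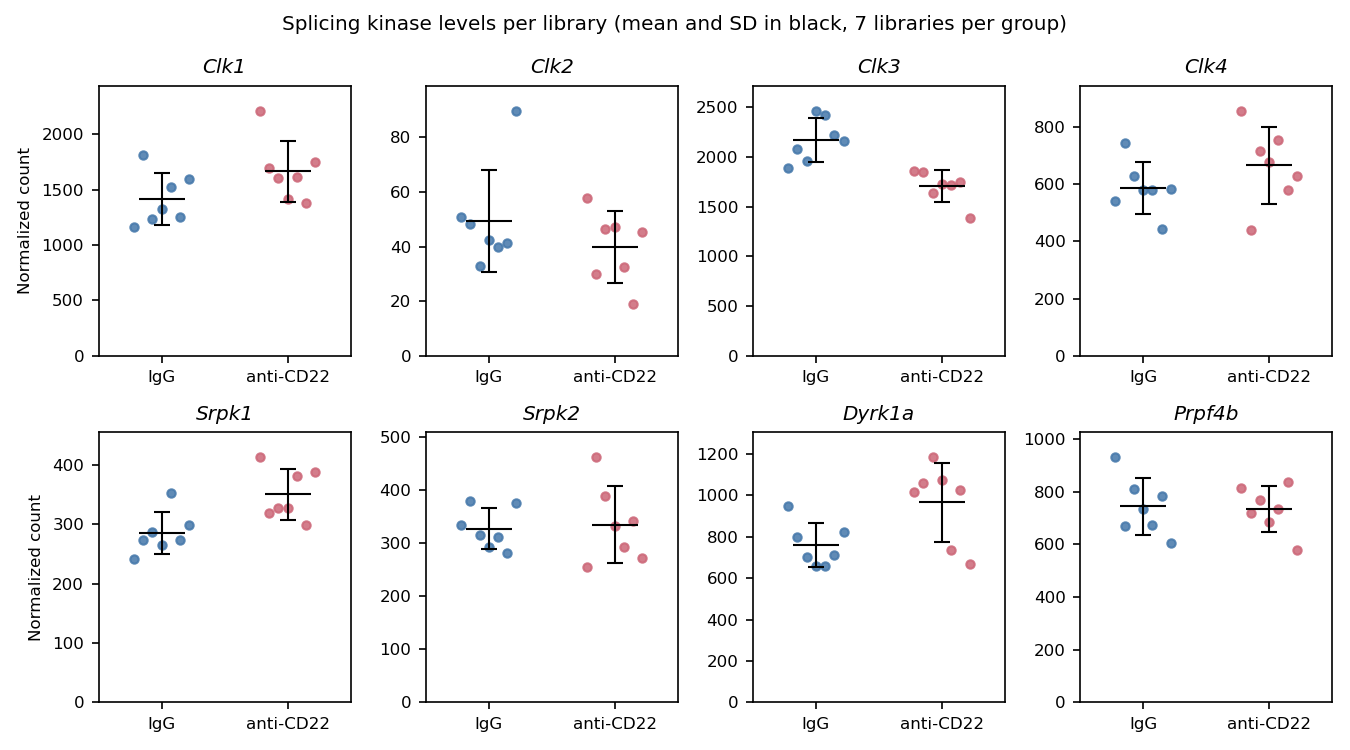
Normalized counts of each kinase in every library on a linear axis from 0, with 7 IgG libraries in blue, 7 anti-CD22 libraries in red, and the mean and SD in black. Clk3 is the one kinase whose groups do not overlap (1885 to 2466 against 1388 to 1861), and 1 IgG library stands apart for Clk2 at 89.7.

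Counted together, 5 kinases were higher and 3 lower with anti-CD22, with log2 differences from -0.35 for Clk3 to 0.33 for Dyrk1a. Their median was 0.09, against 0.00 for all genes tested. With the trend over transcript length and GC content removed 4 were higher and 4 lower, and the median was -0.061, or -0.018 by the coding transcript. In the limma fit over all genes, 0 of the 8 had an adjusted p under 0.05, a level that 0.00859% of genes reached, and 4 of the 8 had an unadjusted p under 0.05, which 12.8% of genes had. Of these Clk1, Srpk1 and Dyrk1a were higher, as were 6.8% of all genes at that level, and Clk3 was lower, as were 5.95%. DESeq2 on the recovered reads of 13 libraries called Clk3 and no other member, where it called 0.275% of genes (0.155% lower). It gave no adjusted p for 3839 of the 11646 genes, Clk2 among them, and these shares count such genes as not called. edgeR called 0 members and 0 genes, with 1027 genes at an unadjusted p under 0.05. As the members were proposed from this contrast, nothing is read from these counts.

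Long transcripts were relatively more abundant in several anti-CD22 libraries, and the differences were computed again with this trend removed. Each gene's deviation from its 14-library mean was set against the length of its longest transcript, and Spearman's rho across genes ran from -0.26 to -0.003 in IgG libraries and from -0.27 to 0.33 in anti-CD22 libraries. Anti-CD22 replicates 1, 2 and 3 were steepest, at 0.31, 0.29 and 0.33. The median rho was -0.10 in IgG and 0.14 in anti-CD22 libraries, so the trend went with the treatment. Its part in the differences therefore cannot be told apart from that of the treatment. Leaving out the 3 steepest libraries also leaves fewer anti-CD22 libraries to compare. With the trend over length and GC content removed in each library, Clk3 had a log2 difference of -0.37 (95% interval -0.53 to -0.22), or of -0.26 (95% interval -0.44 to -0.07) when the coding transcript set the length. Without the 3 steepest libraries it had one of -0.40 (95% interval -0.60 to -0.20). Clk3 was lower under each of these settings. They use the same libraries in which Clk3 was chosen for being lower, so this is no independent support.

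Most of the higher kinases came closer to 0 by these steps. Dyrk1a had a log2 difference of 0.22 with the trend removed and of 0.19 without the 3 libraries, and Srpk1 had ones of 0.19 and 0.29. Clk1 stood at 0.07 with the trend of the longest transcript removed, at 0.20 with that of the coding transcript and at 0.13 without the 3 libraries, so its value moved with the length assigned to it. Clk4 gave 0.06, 0.16 and 0.18. Removal of the trend moved the genes near 0 downward, Srpk2 to -0.18 (95% interval -0.44 to 0.08) and Prpf4b to -0.23 (95% interval -0.48 to 0.03), and Clk2 stood at -0.27.

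**Figure D3:**
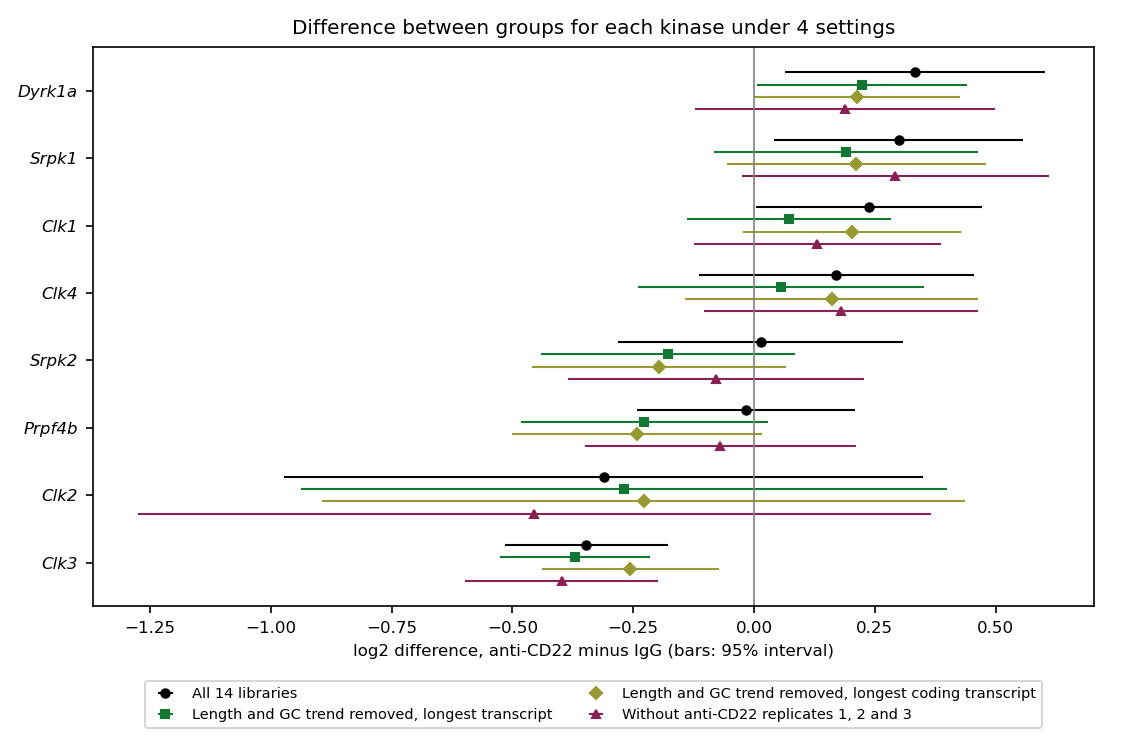
Log2 difference of each kinase, anti-CD22 minus IgG, with its 95% interval, under 4 settings marked by colour and symbol. The interval of Clk3, which was chosen for its lower level in these libraries, lies below 0 in all 4 settings. Those of Srpk1 and Clk1 cross 0 in all but the first.

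Whether the kinases vary together from library to library was examined inside the groups. The choice of the set used no correlation between kinases, but the spread of Clk3 inside groups entered the p it was chosen by. The log2 values were centred on the mean of each group and correlated over the 14 libraries for all 28 pairs of kinases, with p from 100000 permutations of libraries within groups. Pearson's r ran from -0.57 to 0.63 with a median of -0.00, 14 pairs positive and 14 negative. After Benjamini-Hochberg adjustment over the 28 pairs 0 passed by Pearson's r or by Spearman's rho, and 2 pairs had an unadjusted permutation p under 0.05 by Pearson's r.

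The strongest pair was Clk1 and Srpk1, with r = 0.63 (permutation p = 0.0204, adjusted p = 0.345) and rho = 0.67 (permutation p = 0.0138, adjusted p = 0.189) over 14 libraries. It had r = 0.46 among IgG and 0.80 among anti-CD22 libraries, 0.72 without the 2 libraries farthest from the Clk1 median, and with the length and GC trend removed 0.74 (permutation adjusted p = 0.0731). With the trend of the coding transcript removed r was 0.48 (permutation adjusted p = 0.526), and without the 3 libraries with the steepest length trend it was 0.58 (permutation adjusted p = 0.337). Without IgG replicate 2 it passed the threshold, at r = 0.78 (permutation adjusted p = 0.0395). Among 11645 genes ranked by their r with Clk1, Srpk1 took place 101.

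Srpk1 and Dyrk1a, both higher on average with anti-CD22, varied in opposite directions inside the groups, with r = -0.57 (permutation p = 0.0460, adjusted p = 0.345) and rho = -0.65 (permutation p = 0.0196, adjusted p = 0.189). The r was -0.56 among IgG and -0.60 among anti-CD22 libraries, -0.74 without the 2 libraries farthest from the Srpk1 median, and -0.77 with the trend removed. Srpk1 and its relative Srpk2 had r = -0.50 (permutation p = 0.0820, adjusted p = 0.345) and rho = -0.60 (permutation p = 0.0367, adjusted p = 0.252), and an r of -0.40 without the 2 farthest libraries. For this pair r was -0.01 among IgG and -0.80 among anti-CD22 libraries, and -0.37 with the trend removed. Srpk2 and Dyrk1a had r = 0.60 (permutation p = 0.0535, adjusted p = 0.345) and rho = 0.66 (permutation p = 0.0202, adjusted p = 0.189), and an r of 0.81 without the 2 farthest libraries, but of 0.21 with the length and GC trend removed.

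Clk1 and Clk4 had r = 0.49 (permutation p = 0.0889, adjusted p = 0.345) and rho = 0.44 (permutation p = 0.124, adjusted p = 0.499), with r = 0.64 among IgG and 0.39 among anti-CD22 libraries. Without the 2 libraries farthest from the Clk1 median r was 0.03, so the pooled value rests on them. It was 0.45 with the length and GC trend removed, 0.60 by the coding transcript and 0.58 without the 3 steepest libraries. Over all 14 libraries the r of Clk3 with the other kinases ran from -0.13 with Clk2 to 0.20 with Clk1. These values pool groups that differed for some pairs. Clk3 and Dyrk1a had r = -0.75 among the IgG libraries and 0.63 among the anti-CD22 libraries, and Clk3 and Prpf4b had r = -0.54 and 0.78. The difference in r between the groups was not tested.

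**Figure D4:**
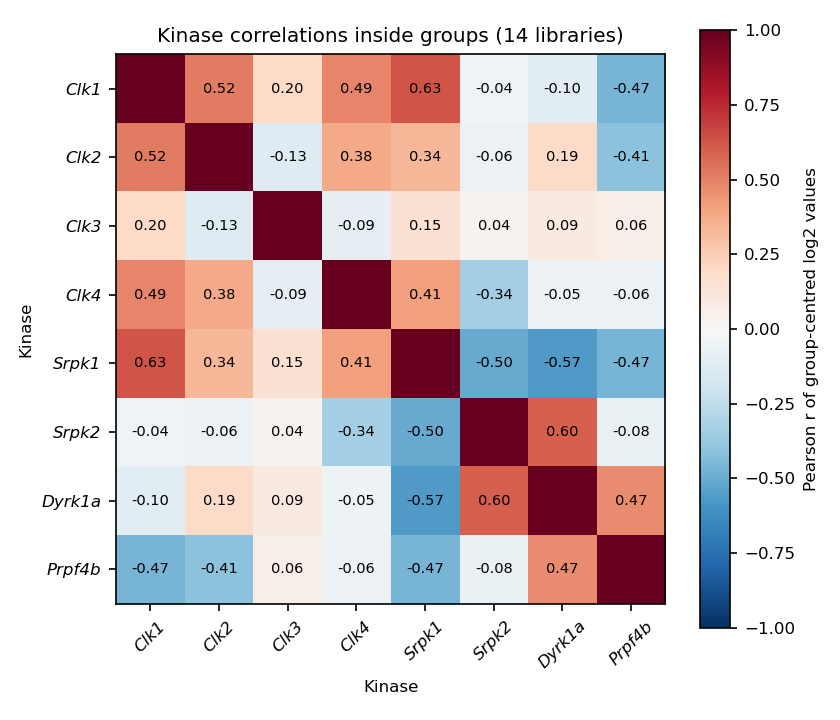
Pearson's r between each pair of kinases over 14 libraries after the group means were removed, printed in each cell and coloured from blue at -1 to red at 1. Clk1 and Srpk1 show the highest value at 0.63, Srpk1 and Dyrk1a the lowest at -0.57, and the Clk3 row is pale throughout.

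The genes whose variation inside groups was most like that of each kinase were taken by the highest Pearson r over 14 libraries among 11645 genes. For Clk3 they were Rapgefl1 (r = 0.89), Gcdh (0.86) and Dtl (0.86), and for Clk1 Zufsp (0.92), Ybey (0.83) and Gm5113 (0.81). For Clk4 they were Zfp786 (0.83), St14 (0.80) and Nova1 (0.78), and for Clk2 Snhg8 (0.94), Ndufa3 (0.89) and Cox20 (0.88). Srpk1 was closest to Frs3 (0.84), Srpk2 to Map3k5 (0.81), Dyrk1a to Pdpk1 (0.89) and Prpf4b to Mapkapk2 (0.87). These are the top of a long ranking over few libraries, whose median absolute r was from 0.18 for Clk4 to 0.27 for Dyrk1a, and they carry no test.

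Partners of the kinases in the same pathway were described from 7 lists with 94 genes tested. Of these genes 0 passed the limma threshold, which 0.00859% of all genes passed, and 17 (18.1%) had an unadjusted p under 0.05, against 12.8% of all genes. Of 11 other kinases tested that are related to the set or act on transcription and splicing, 6 were higher and 5 lower with anti-CD22, and 0 passed the limma threshold (1 higher and 1 lower at an unadjusted p under 0.05). Srpk3, the third Srpk gene, had a mean of 528 ± 123 normalized counts in IgG (SD, n = 7) and of 481 ± 80.9 in anti-CD22 libraries (SD, n = 7), a log2 difference of -0.12 (limma adjusted p = 0.754), and one of -0.07 once length and GC trends were taken out. Cdk9, a kinase of RNA polymerase, had the smallest p of this list. Its IgG libraries ran from 5455 to 5837 normalized counts and its anti-CD22 libraries from 4459 to 5306, without overlap, as for 0.12% of all genes in the lower direction (log2 difference -0.19, SE 0.052, limma adjusted p = 0.208). With the trend of the coding transcript removed its log2 difference was -0.09 (95% interval -0.20 to 0.01), and with that of the longest transcript -0.21. Hipk3, a relative of Dyrk1a, had a log2 difference of 0.43 (SE 0.20, limma adjusted p = 0.383), and one of 0.26 with the trend removed. The list's split became 4 higher and 7 lower with the trend removed.

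The next list held phosphatases that remove phosphates from SR proteins and splicing factors, with the regulatory subunits Ppp1r8 and Ppp1r10. It was split, with 4 of 8 genes higher, 4 lower and 0 past the threshold (1 higher and 1 lower at an unadjusted p under 0.05). The catalytic subunit Ppp1ca had a mean of 10969 ± 526 normalized counts in IgG (SD, n = 7) and of 10017 ± 369 in anti-CD22 libraries (SD, n = 7), a log2 difference of -0.13 (limma adjusted p = 0.289), while Ppp1cb had one of 0.17 (limma adjusted p = 0.388). Once that trend was taken out these were -0.016 for Ppp1ca and -0.0031 for Ppp1cb. For nuclear import, Tnpo3, the carrier of phosphorylated SR proteins, averaged 1870.3 ± 178 and 2061 ± 329 (SD, n = 7 each), a log2 difference of 0.13 (limma adjusted p = 0.567), and of 0.07 with the trend removed.

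The SR proteins are the main substrates. Of 10 SR proteins tested 5 were higher and 5 lower, with a median log2 difference of 0.01 and 0 past the threshold (1 higher and 1 lower at an unadjusted p under 0.05). With the length and GC trend removed 2 were higher and 8 lower, and by the coding transcript 3 were higher and 7 lower. Srsf1, the founding member of the family, had a mean of 1167 ± 122 normalized counts in IgG (SD, n = 7) and of 1414 ± 289 in anti-CD22 libraries (SD, n = 7) (log2 difference 0.26, SE 0.12, limma adjusted p = 0.372). Srsf9 averaged 5692 ± 520 and 5057 ± 553 (SD, n = 7 each; log2 difference -0.17, SE 0.075, limma adjusted p = 0.352). Their log2 differences were 0.09 for Srsf1 and -0.11 for Srsf9 with the trend removed, 0.07 and -0.05 by the coding transcript, and 0.07 and -0.05 without the 3 steepest libraries. Srsf12 was listed at 0 in every library.

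Of 25 SR-related proteins 17 were higher and 8 lower, with a median log2 difference of 0.08 and 0 past the threshold (4 higher and 1 lower at an unadjusted p under 0.05). Among all genes tested 50.2% were higher. Rsrp1, a small protein rich in arginine and serine, differed most. It ran from 5408 to 22330 normalized counts in IgG libraries and from 9803 to 38051 in anti-CD22 libraries, of which 5 exceeded the highest IgG library. Anti-CD22 replicates 2 and 3 (9803 and 20778) lay inside the IgG range, whose top was set by IgG replicates 2 and 6 (19524 and 22330). The log2 difference was 1.20 (SE 0.30, 95% interval 0.57 to 1.84, limma adjusted p = 0.182). It was 1.19 once length and GC trends were taken out and 1.51 without the 3 steepest libraries. Srek1 (0.42) and Scaf4 (0.54) came next by p, at a limma adjusted p of 0.309 and 0.349, with 0.22 and 0.52 once the trend was removed. The median of this list was -0.03 with the trend removed, with 12 higher and 13 lower, so its sign depended on this step.

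Of 15 tri-snRNP genes, which include substrates of Prpf4b, 6 were higher and 9 lower, with a median of -0.04 and 0 past the threshold (2 higher and 1 lower at an unadjusted p under 0.05). Ddx23, a helicase of the tri-snRNP, averaged 100.4 ± 17.9 normalized counts (SD, n = 7) and 145 ± 31.7 (SD, n = 7), a log2 difference of 0.52 (SE 0.19, limma adjusted p = 0.296). Of 22 hnRNP genes, whose products often oppose SR proteins, 15 were higher and 7 lower, with a median of 0.06 and 0 past the threshold (2 higher and 1 lower at an unadjusted p under 0.05). Ptbp3 ran from 1694 to 2205 normalized counts with IgG and from 1772 to 3021 with anti-CD22 (log2 difference 0.33, SE 0.10, limma adjusted p = 0.235), and had a log2 difference of 0.11 with the trend removed.

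**Figure D5:**
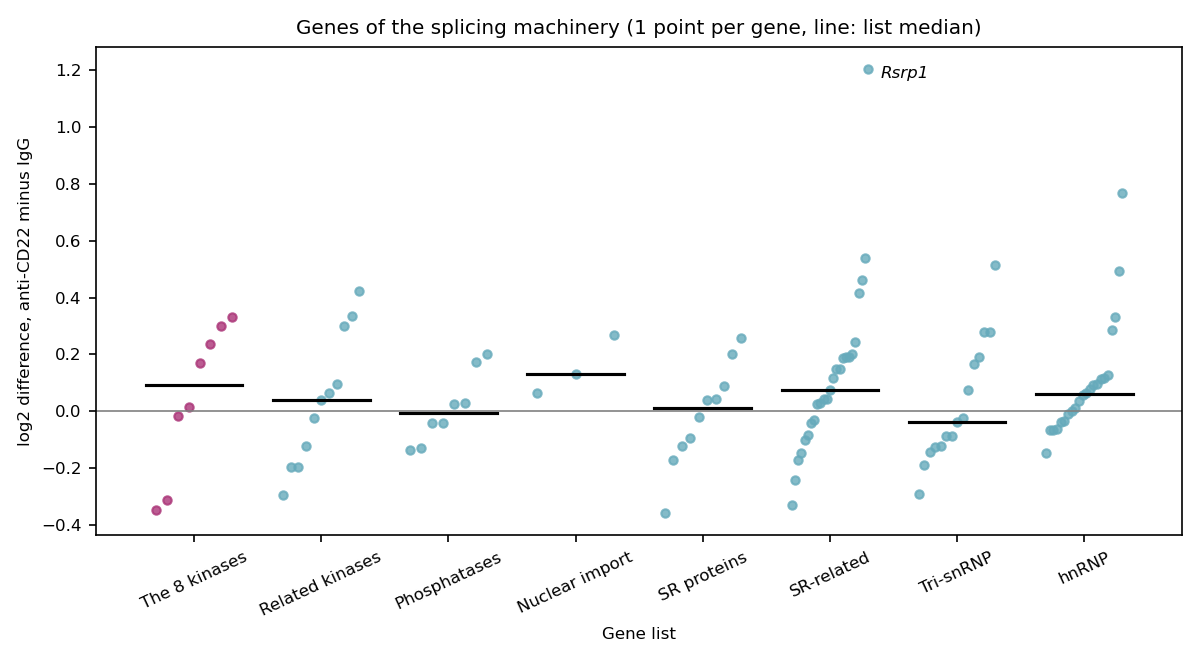
Log2 difference, anti-CD22 minus IgG, of the 8 kinases and of the tested genes in 7 lists of the splicing machinery, with 1 point per gene and a black line at each list's median. The medians lie between -0.04 for the tri-snRNP and 0.13 for the import genes, and Rsrp1 stands above all other genes shown at 1.20.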

How the data were processed

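The deposited signal is the authors' normalized count per gene. The submitters' processing notes name bcl2fastq, STAR, DESeq2 and the mm10 build, and the series' design text adds SummarizedExperiment for the count matrix; sources used here state no versions, gene annotation, or handling of strand and shared reads. Of 24421 entries, 27 with names turned into dates were left out. Groups came from the sample titles. For 13 libraries the values were whole multiples of 1 step (100% within 0.1 reads), which recovered reads; anti-CD22 replicate 3 has a step close to 1 and stayed out of edgeR and DESeq2.

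The fit over all genes was limma on log2(normalized count + 1), with a mean-variance trend, for 11646 genes with a mean of at least 10, with two-sided p and Benjamini-Hochberg adjustment at 0.05. Log2 differences are on that scale and understate changes of low genes. Lengths, GC content and coordinates came from GENCODE vM21 (GRCm38, the assembly of mm10), known for 96.4% of genes tested. Natural splines with 4 degrees of freedom each for length and GC removed their trend per library. On simulated counts of the same 11646 genes and design, 54 of 100 genes with a 1.5-fold change were found, as were 79 of 100 with a 2-fold change, beside 6 false calls. The simulation drew genes independently and held no length trend. Its smallest change exceeds the largest among the kinases (1.27-fold for Clk3), so it does not give the power for them. Members and lists were chosen with earlier results of these data known. Named genes were the 8 members, genes of the kinase, phosphatase, SR protein and import lists, up to 3 with the smallest p of the other lists, and the 3 most alike for each member. Not every gene so taken is printed, and Edc3, Kmt2e and Scamp3 are named as neighbours. One lymphocyte marker is not reported here. Reads carry no molecular identifiers. R 4.3.3, limma 3.58.1, edgeR 4.0.16, DESeq2 1.42.0 and Python 3.11.15 were used.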

Additional observations from a re-analysis of the deposited data

Results flagged for a closer look

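One of the 16 groups of 7 values (8 kinases, each with IgG and anti-CD22) held a library far from the others. Clk2 in IgG replicate 7 was listed at 89.7 normalized counts, while the other 6 IgG libraries ran from 32.8 to 50.8, a gap of 0.683 of the whole range, above Dixon's critical value. Chance marks about 1 in 20 groups. Scamp3, the gene after Clk2, also had its highest listed value there, at 17.9. IgG replicate 7 also had the fewest recovered reads, 20221836, and the most genes above 0, 13418. Whether this bears on Clk2 was not tested. Without this library Clk2 had a log2 difference of -0.16, against -0.31 with it, and without anti-CD22 replicate 6, the lowest library at 19.1, one of -0.15.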

How the results depend on the processing

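The count of genes past the limma threshold was 1 of 11646. It was 0 without a mean-variance trend, with the length and GC trend removed (by the longest or by the coding transcript), without the 3 steepest libraries and by edgeR, 8 with array weights and 32 by DESeq2. On leaving out each library it ranged from 0 to 43, being 43 when anti-CD22 replicate 7 was left out, 2 for anti-CD22 replicate 2 or 5, and 0 for IgG replicate 2, 3, 4, 5 or 7 and for anti-CD22 replicate 1, 3 or 6. The number of kinases called was 1 by DESeq2 and 0 in every other alternative. The median of the 8 kinases was 0.09, from 0.05 to 0.14 on leaving out each library and -0.061 with the length and GC trend removed, and that of the SR-related list was -0.032 with this trend removed and -0.013 by the coding transcript, a step added after seeing the data. The number of correlated pairs ranged from 0 to 1 on leaving out each library. That 1 pair, Clk1 and Srpk1, passed without IgG replicate 2. The cause of these changes was not tested. Of 223 values of single kinases under alternatives, 2 moved by more than the SD within groups, both for Prpf4b with the trend removed. Srpk2 changed sign in 10 of 28 alternatives and Prpf4b in 4 of 28, while the other 6 kinases kept their direction in all alternatives run. Libraries of the same replicate number had correlations of their deviations from -0.15 to 0.16 over 7 pairs, with 2 over 0.1. Libraries of different numbers were not compared in this way, so whether the number pairs libraries was not tested. A replicate block gave 2 genes called and 0 kinases. Counts near 44 per library limit Clk2.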
